A study of Solanum lycopersicum with 24 samples.

Results

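Tomato flesh that grew in the dark and was then lit for 5 d was set against flesh that had light throughout. The tested libraries are the 3 labelled mesocarp, 5 d after exposure to light, and the comparison libraries are the 3 labelled mesocarp control; both sets were picked by their sample titles alone and make up 6 of the 24 RNA-seq libraries of a study of pigment gene expression in purple tomato. The mesocarp is the flesh of the fruit and the epicarp is its skin. Fruit of the mesocarp 5 d group were wrapped in foil from flowering for 30 d, uncovered, and sampled after 5 d of light, whereas mesocarp control fruit were sampled after 30 d of development in light. The cover, its removal and the later sampling all separate these groups, so their parts in any difference cannot be told apart.

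All fruit carried the genotype MT-Aft/atv/hp2, the light-grown controls included. In tomato, Aft provides an active R2R3-MYB activator of pigment genes, atv removes an R3-MYB repressor of the same genes, and hp2 alters DET1, a repressor of light responses, so fruit of such lines accumulate purple anthocyanin. The labels do not say whether replicates came from separate plants, so each p-value measures only the spread between the libraries in the model. The other 18 libraries (mesocarp 0 d and 2 d, and epicarp 0 d, 2 d, 5 d and control, 3 of each) entered the model for a shared estimate of the spread.

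Anthocyanins are made from phenylalanine by the phenylpropanoid enzymes and then the flavonoid enzymes, and finished pigment is carried into the vacuole. A complex of an R2R3-MYB, a bHLH and a WD40 protein switches on the later genes of this pathway, while small R3-MYB proteins act against it. Light reaches the pathway through phytochromes, cryptochromes and the factor HY5, whose stability is set by the COP1 and DET1 complexes. The same light signals also drive chloroplast genes, which green fruit express in the flesh.

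The mesocarp 5 d libraries held 21575300, 18925789 and 23197867 counted reads (replicates 1, 2 and 3), against 19397406, 18465849 and 21355008 in mesocarp control. Levels are given as CPM (reads scaled to a common library size by the TMM method), in the order of replicates 1, 2 and 3, and 3 reads correspond to between 0.128 and 0.171 CPM in these 6 libraries. Of 10 marker genes of the epidermis and its cuticle, 0 passed edgeR's test in either direction between the groups (0 at an unadjusted p under 0.05, and 1 lower by DESeq2). CD1, a cutin synthase of the skin, stood between 0.0571 and 1.52 CPM in mesocarp 5 d and between 0.935 and 2.06 CPM in mesocarp control, against 810 to 2270 CPM in epicarp control. CD2, a regulator of cuticle genes, stood between 15.8 and 27.2 CPM in mesocarp 5 d and between 20.2 and 23.1 CPM in mesocarp control, against 223 to 225 CPM in epicarp control. The MIXTA-like gene, of a family known from epidermal cells, stood between 0.195 and 7.32 CPM in mesocarp 5 d and between 2.72 and 4.97 CPM in mesocarp control, against 73.1 to 99.9 CPM in epicarp control. CYP77A2, another of the 10, stood between 0.228 and 0.877 CPM in mesocarp 5 d, against 4.25 to 10.8 CPM in mesocarp control. In epicarp control CYP77A2 was at 365 to 530 CPM. Of the 10 markers, 3 had a positive log2 change and 7 a negative one, and only CYP77A2 had groups without overlap. The part of skin cells in the results was not tested. In bulk tissue, fewer cells of a type and less RNA per cell cannot be told apart, and this holds for every level below.

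Of 19620 genes tested with edgeR's quasi-likelihood test, 3987 (20.3%) differed between mesocarp 5 d and mesocarp control at a Benjamini-Hochberg adjusted p of 0.05. Of these, 2474 (12.6% of those tested) were higher in mesocarp 5 d, with a median change of 1.15 on the log2 scale (2.21-fold), and 1513 (7.71%) were lower, with a median of -0.85 (1.81-fold). Large changes were mainly increases, with 236 genes higher by at least 4 log2 units and 71 lower by as much. In 81 of the higher genes no control library held a read, and in 13 of the lower genes no mesocarp 5 d library did. The 6 libraries gave values without overlap between the groups for 8153 genes (41.6% of those tested) and for 3833 of the 3987 called genes. The split between directions rests on the scaling: with libraries scaled by total reads alone, the median of all genes tested moved by -0.20 on the log2 scale and the calls became 1771 higher and 3373 lower (34.4% higher, against 62.1% as reported), and limma on log2(TPM + 1) called 1646 higher and 4381 lower (27.3% higher). Leaving out mesocarp 5 d replicate 2 reduced the calls to 2558.

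**Figure D1:**
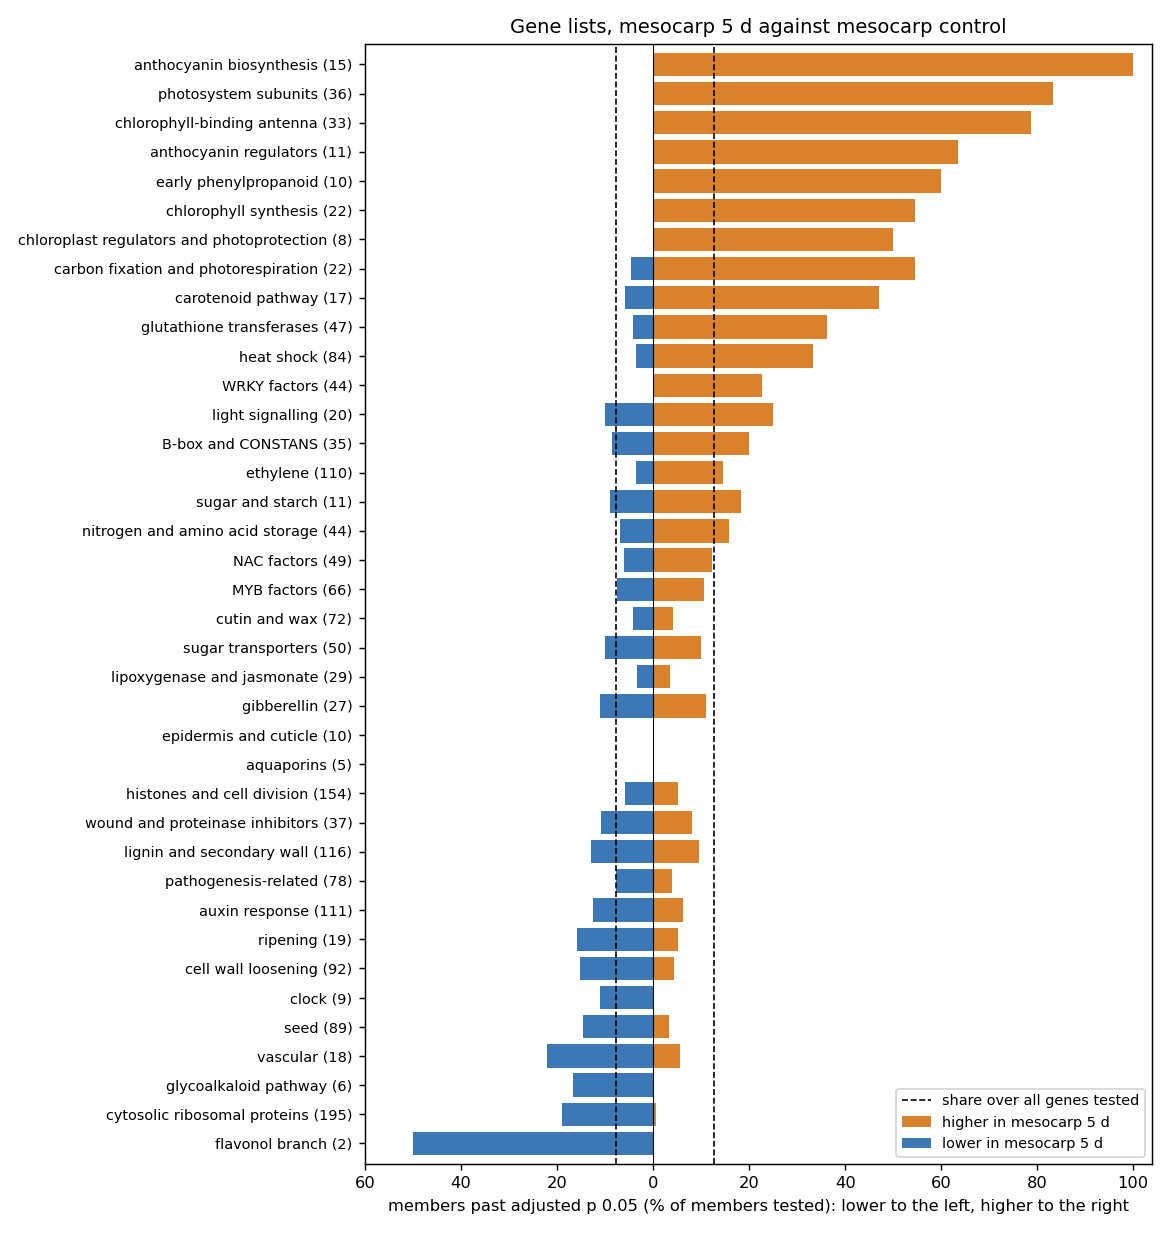
Share of the tested members of 38 gene lists (number tested in brackets) that passed adjusted p 0.05, in percent, with members lower in mesocarp 5 d to the left of zero and higher to the right; dashed lines mark the shares over all 19620 genes, 7.71% lower and 12.6% higher. The anthocyanin, photosystem and antenna lists lie far to the right, with 100%, 83.3% and 78.8% of members higher, and the ribosomal protein list lies to the left with 19% lower.

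The plot of list shares places the pigment pathway at one end. All 15 tested members of the anthocyanin biosynthesis list rose in mesocarp 5 d, with a median change of 9.29 on the log2 scale, beside 12.6% of all genes that rose. Together these genes took 2.84%, 3.20% and 1.66% of all counted reads in the mesocarp 5 d libraries, against 0.0218%, 0.00918% and 0.0104% in mesocarp control. In mesocarp 0 d, at the moment of uncovering, the share was between 0.00253% and 0.0204%, and in mesocarp 2 d between 3.07% and 3.65%. Their summed share was thus at most 0.0218% in flesh that had grown in light and at most 0.0204% in flesh taken straight from the dark.

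The pathway opens with phenylalanine ammonia-lyase (PAL), which removes ammonia from phenylalanine. PAL Solyc09g007920.4 reached 15248, 22818 and 11602 CPM in mesocarp 5 d, against 418, 431 and 430 CPM in mesocarp control. It ranked among the most abundant transcripts of re-lit flesh, and every mesocarp 5 d library exceeded every control library by a wide margin (38.8-fold; log2 change 5.28 ± 0.50 SE, edgeR adjusted p = 9.27e-07). Each SE given with an edgeR log2 change is approximate, being derived from that change and its test statistic. PAL Solyc05g056170.3 stood at 1614, 2226 and 916 CPM in mesocarp 5 d and at 2.48, 5.66 and 2.98 CPM in mesocarp control, which made it the PAL gene with the highest ratio (log2 change 8.74 ± 1.71 SE, adjusted p = 0.00137). PAL Solyc09g007900.5 and PAL Solyc10g086180.2 rose by 5.55 and 6.57 log2 units. PAL genes are close in sequence, and no source used here says how the authors' counting shared reads between such copies.

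The next enzymes convert cinnamate to coumaroyl-CoA. The P450 gene Solyc06g150137.1, taken here as a cinnamate 4-hydroxylase, measured 779, 683 and 554 CPM in mesocarp 5 d, against 111, 91.6 and 99.2 CPM in mesocarp control, without overlap (log2 change 2.74 ± 0.24 SE, adjusted p = 4.03e-07). The 4-coumarate:CoA ligase Solyc06g068650.4 rose to 136, 146 and 108 CPM in mesocarp 5 d, against 18.3, 22.7 and 17.3 CPM in mesocarp control (adjusted p = 0.0238), a call that was lost without mesocarp 5 d replicate 2 or without control replicate 1, 2 or 3 (adjusted p 0.0631 to 0.0803). The other ligase, Solyc03g117870.3, did not pass (188, 269 and 223 CPM in mesocarp 5 d, against 142, 100 and 133 CPM in mesocarp control). In all, 6 of 10 early phenylpropanoid genes tested rose (60%, against 12.6% of all genes) and 0 fell (against 7.71%).

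Chalcone synthase commits carbon to flavonoids, and its 2 listed genes were almost silent in mesocarp control. CHS1 (Solyc09g091510.3; chromosome 9, 66873902 to 66876060 in SL4.0) had 1808, 1921 and 1011 CPM in mesocarp 5 d, against 1.17, 0.298 and 0.978 CPM in mesocarp control. CHS2 (Solyc05g053550.3) had 2365, 3733 and 1696 CPM in mesocarp 5 d, against 4.97, 3.68 and 3.78 CPM in mesocarp control. Both rose without overlap, CHS1 by 10.90 ± 0.71 (SE) and CHS2 by 9.29 ± 1.53 (SE) on the log2 scale (adjusted p = 6.11e-09 and 0.000303), and as close copies they may share reads.

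The isomerase and hydroxylase steps had a higher starting level in mesocarp control. Chalcone isomerase (CHI) was at 651, 680 and 432 CPM in mesocarp 5 d and at 17.3, 12.6 and 10.1 CPM in mesocarp control. Flavanone 3-hydroxylase (F3H) was at 3326, 4145 and 1882 CPM in mesocarp 5 d and at 106, 27.1 and 36.7 CPM in mesocarp control. They rose 44.1-fold and 54.9-fold, less than the chalcone isomerase-like gene CHIL, an enhancer of chalcone formation in other plants, at 973, 1120 and 520 CPM against 4.92, 1.89 and 1.91 CPM in mesocarp control.

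Flavonoid 3'-hydroxylase (F3'H), which leads to pigments with 2 ring hydroxyls, behaved differently from its neighbours in the pathway. It measured 4.38, 13.9 and 49.9 CPM in mesocarp 5 d and 5.11, 4.17 and 7.06 CPM in mesocarp control, so the groups overlapped through replicate 1 of mesocarp 5 d. Its call (adjusted p = 0.0164) was lost without mesocarp 5 d replicate 3 (adjusted p = 0.292), control replicate 1 (0.0568) or control replicate 2 (0.0659), and in those fits 14 of the 15 list members passed. Flavonoid 3',5'-hydroxylase (F3'5'H), which leads to the blue delphinidin pigments, was read from the TPM table, since the count columns used here hold no row for it. It stood at 1165, 1260 and 544 TPM in mesocarp 5 d, against 0.610, 0.541 and 0.929 TPM in mesocarp control, without overlap. On the log2(TPM + 1) scale, which understates changes of low values, the difference was 9.11 ± 0.29 (SE; limma adjusted p = 4.07e-14).

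Dihydroflavonol reductase (DFR) and anthocyanidin synthase (ANS) make the coloured core. DFR (Solyc02g085020.4; chromosome 2, 46065285 to 46067689 in SL4.0) reached 2959, 3291 and 1802 CPM in mesocarp 5 d, against 2.02, 2.34 and 1.79 CPM in mesocarp control. ANS (Solyc08g080040.4) reached 3418, 4083 and 1975 CPM in mesocarp 5 d, against 5.30, 6.91 and 5.78 CPM in mesocarp control. DFR rose by 10.36 ± 0.41 (SE) and ANS by 9.04 ± 0.50 (SE) on the log2 scale (adjusted p = 4.49e-12 and 7.36e-10), and both were at most 6.91 CPM in every control library. The intervals of DFR and ANS share 195 and 276 bases with a neighbouring gene, so a few reads may belong to the neighbours.

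The decorating and transport genes rose as well. The glucosyltransferase 5GT was at 2625, 2822 and 1348 CPM in mesocarp 5 d, against 1.73, 2.48 and 2.04 CPM in mesocarp control, and the acyltransferase AAT was at 2145, 2238 and 1207 CPM in mesocarp 5 d, against 1.5, 0.398 and 1.19 CPM in mesocarp control. A3GT and 3RT, which add glucose and rhamnose at position 3, rose 61.0-fold and by 7.28 log2 units, from control levels between 3.18 and 28.0 CPM. The methyltransferase AOMT rose by 10.34 ± 0.41 (SE), the glutathione transferase GST, needed for vacuolar delivery of pigment, by 10.53 ± 0.52 (SE), and the anthocyanin permease MTP77 by 10.99 ± 0.67 (SE). MTP77 (Solyc03g025190.4; chromosome 3, 2639179 to 2643052 in SL4.0) had the largest log2 change of the listed pathway genes, with 2997, 3333 and 1593 CPM in mesocarp 5 d, against 2.06, 0.795 and 1.02 CPM in mesocarp control. Within the mesocarp 5 d group, replicate 3 was the lowest of the 3 libraries for each of these genes, and it still exceeded every control library.

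**Figure D2:**
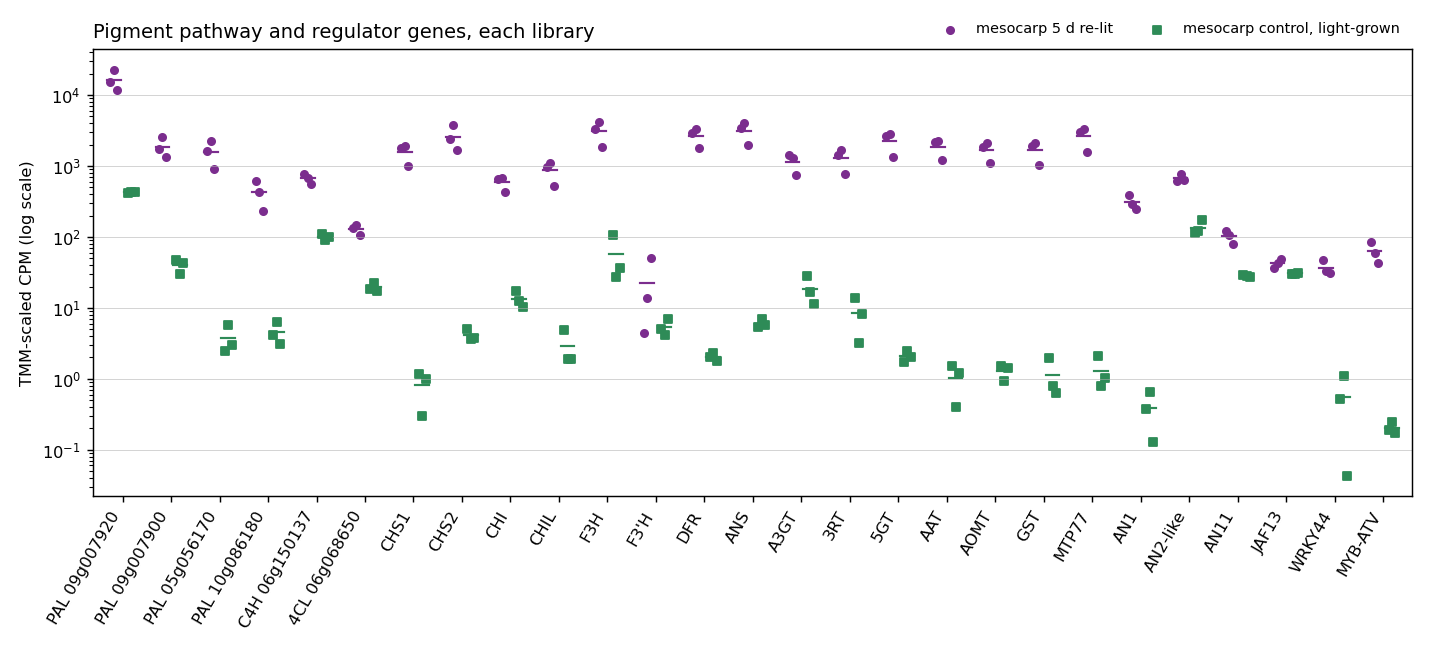
Level of 27 pigment pathway and regulator genes in TMM-scaled CPM (log axis) in each of the 3 mesocarp 5 d libraries (purple circles, left of each pair) and 3 mesocarp control libraries (green squares); short lines are group means. For CHS1, DFR, ANS, 5GT, AAT, AOMT, GST and MTP77 the control libraries lie between 0.298 and 6.91 CPM and the mesocarp 5 d libraries between 1011 and 4083 CPM, whereas for F3'H the groups overlap.

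Of 11 tested regulators of the pathway, 7 rose (63.6%, against 12.6% of all genes) and 0 fell (against 7.71%). AN1 (Solyc09g065100.3; chromosome 9, 59048134 to 59055605 in SL4.0), the bHLH partner of the activating complex, was at 394, 288 and 248 CPM in mesocarp 5 d, against 0.375, 0.646 and 0.128 CPM in mesocarp control. That gene was nearly off in light-grown flesh and on in every re-lit library (log2 change 9.67 ± 0.58 SE, adjusted p = 2.21e-09). AN2-like, the R2R3-MYB gene tied to Aft, was at 618, 762 and 635 CPM in mesocarp 5 d and was already on in mesocarp control, at 115, 120 and 171 CPM. Its 4.96-fold increase showed no overlap but passed only narrowly (adjusted p = 0.0335), and the call was lost when any 1 of the 6 libraries was left out (adjusted p 0.055 to 0.103).

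The WD40 partner AN11 rose 3.60-fold, to 121, 105 and 80.5 CPM in mesocarp 5 d, against 29.4, 28.5 and 27.3 CPM in mesocarp control (adjusted p = 1.45e-06). JAF13, the other bHLH, moved little, with 36.0, 43.4 and 49.1 CPM in mesocarp 5 d and 30.2, 30.1 and 31.5 CPM in mesocarp control. Its log2 change of 0.49 passed with all libraries (adjusted p = 0.0313) and not without mesocarp 5 d replicate 2 or 3 or without control replicate 1, 2 or 3 (adjusted p 0.0618 to 0.144), nor when scaled by total reads (adjusted p = 0.164). AN2-like, AN11 and JAF13 were thus read well above the floor in both groups, unlike AN1.

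The repressor MYB-ATV, an R3-MYB whose function the atv allele removes, had 84.6, 59.2 and 43.1 CPM in mesocarp 5 d, against 0.188, 0.248 and 0.170 CPM in mesocarp control. Its transcript rose by 8.24 ± 0.52 (SE) on the log2 scale (adjusted p = 1.93e-08), and reads do not say whether a functional protein is made. WRKY44, whose counterpart in Arabidopsis acts in vacuolar acidification and seed coat pigment, stood at 46.9, 32.7 and 30.6 CPM in mesocarp 5 d and at 0.516, 1.09 and 0.0425 CPM in mesocarp control. MYB76 (Solyc05g008250.2) was at 36.5, 49.8 and 12 CPM in mesocarp 5 d, against 0.375, 0 and 0.255 CPM in mesocarp control. Both rose, by 6.09 ± 0.89 and 7.21 ± 0.77 (SE) on the log2 scale (adjusted p = 9.51e-05 and 3.57e-06).

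The other R2R3-MYB genes beside AN2-like on chromosome 10 gave almost no reads. ANT1 and its neighbour ANT1-like had 0 CPM in all 6 flesh libraries, and AN2 had at most 0.0487 CPM in mesocarp 5 d and at most 1.64 CPM in mesocarp control (adjusted p = 0.0778). MYB32, from a MYB group known for repressors, did not pass by edgeR (27.8, 28.8 and 25.4 CPM in mesocarp 5 d, against 6.42, 13.1 and 5.70 CPM in mesocarp control, without overlap; adjusted p = 0.0595). It passed as higher with DESeq2, with only the groups compared and without the 0 d groups (adjusted p = 0.00127), and its log2 change was between 1.49 and 2.19 over 14 alternatives. The list's median change was 2.31 on the log2 scale, or 1.85 with the gene at 0 reads in a group set at its bound, and the higher count was 5 or 6 with any 1 library left out.

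The flavonol branch, which uses the same precursors for colourless compounds, did not go up with the pigment genes. Flavonol synthase (FLS) was at 44.5, 63.2 and 136 CPM in mesocarp 5 d and at 165, 118 and 95.7 CPM in mesocarp control, with overlapping groups (adjusted p = 0.501). MYB12, the activator of flavonol genes, was lower at 2.78, 3.82 and 12.1 CPM in mesocarp 5 d, against 22.6, 12.4 and 16.5 CPM in mesocarp control (log2 change -1.46 ± 0.43 SE, adjusted p = 0.0224). The MYB12 call was lost without mesocarp 5 d replicate 1 (adjusted p = 0.09), mesocarp 5 d replicate 2 (0.106) or control replicate 1 (0.0918).

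Of 20 light signalling genes tested, 5 were higher (25%, against 12.6% of all genes) and 2 lower (10%, against 7.71%). HY5 was at 4.43, 4.79 and 5.44 CPM in mesocarp 5 d and at 8.06, 4.67 and 8.42 CPM in mesocarp control, and DET1, the gene altered by hp2, was at 17.8, 24 and 25.7 CPM in mesocarp 5 d and at 18.5, 22.4 and 23.5 CPM in mesocarp control. Neither passed, and the groups overlapped for both (adjusted p = 0.619 and 0.808). COP1, the ubiquitin ligase that removes HY5 in darkness, did not pass either (adjusted p = 0.802).

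PHYA, which encodes phytochrome A, did not pass edgeR's test, at 150, 144 and 111 CPM in mesocarp 5 d against 85.8, 103 and 86.4 CPM in mesocarp control (log2 change 0.56 ± 0.22 SE, adjusted p = 0.077). Its groups did not overlap, and it passed as higher when the 0 d groups were left out (adjusted p = 0.00451) and with only the groups compared. The red-light receptor gene PHYB2 fell to 49.0, 33.0 and 33.8 CPM in mesocarp 5 d, against 121, 180 and 133 CPM in mesocarp control (log2 change -1.91 ± 0.25 SE, adjusted p = 2.96e-05). PHYB1 fell by 0.61 on the log2 scale, to 40.7, 43.0 and 42.9 CPM in mesocarp 5 d, against 63.8, 71.2 and 58.6 CPM in mesocarp control (adjusted p = 0.00413). Solyc11g005190.3, a WD40 gene listed here as RUP, which damps UV-B signalling in Arabidopsis, rose to 4.38, 11 and 17 CPM in mesocarp 5 d, against 1.69, 1.44 and 1.49 CPM in mesocarp control (adjusted p = 0.005). The other 4 higher genes, CRY1b, CRY2, a COP1-like gene and BBX20, passed with adjusted p between 0.0206 and 0.0278. The list's higher count fell to 1 without control replicate 1, to 2 without mesocarp 5 d replicate 2 or 3 or control replicate 3, and to 3 without control replicate 2.

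Chloroplast genes formed the broadest group of increases. Their lists are set here against the 12.6% higher and 7.71% lower over all genes. Of 33 chlorophyll-binding antenna genes tested, 26 rose (78.8%) and 0 fell, with a median log2 change of 2.84. Of 36 photosystem subunit genes, 30 rose (83.3%) and 0 fell, with a median of 1.70. Antenna genes together took 0.478%, 0.887% and 1.05% of reads in mesocarp 5 d, against 0.155%, 0.189% and 0.161% in mesocarp control, and photosystem genes took 0.590%, 0.942% and 1.16% in mesocarp 5 d, against 0.248%, 0.362% and 0.279% in mesocarp control. Mesocarp 5 d replicate 1 had the lowest share of its group for both lists and stayed above every control library. The order of the re-lit libraries was therefore not the same as for the summed reads of the anthocyanin biosynthesis list, in which replicate 3 was lowest.

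The antenna genes bind chlorophyll and pass light energy to the photosystems. CAB3A (Solyc03g005760.1; chromosome 3, 542669 to 543472 in SL4.0) was at 1088, 2092 and 1833 CPM in mesocarp 5 d, against 166, 199 and 154 CPM in mesocarp control (log2 change 3.27 ± 0.40 SE, adjusted p = 1.48e-05). The Cab-5 gene Solyc12g006140.2 was at 67.5, 114 and 177 CPM in mesocarp 5 d, against 5.25, 6.46 and 8.29 CPM in mesocarp control, 17.9-fold higher without overlap. Antenna gene Solyc02g071010.1, one of a tandem cluster on chromosome 2 whose members may share reads, was at 27.0, 145 and 244 CPM in mesocarp 5 d, against 3.80, 6.31 and 6.17 CPM in mesocarp control. Among photosystem genes, the 22 kDa protein of photosystem II (Solyc06g060340.3), which sheds excess light energy, had 171, 457 and 552 CPM in mesocarp 5 d, against 24.4, 48.8 and 23.9 CPM in mesocarp control. Photosystem I subunit VI (Solyc06g066640.3) rose by 3.53 ± 0.36 (SE) on the log2 scale (adjusted p = 2.03e-06).

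Carbon fixation and photorespiration followed, with 12 of 22 genes higher (54.5%) and 1 lower. Rubisco activase (Solyc09g011080.3), which frees the carboxylase from inhibitors, was at 202, 419 and 508 CPM in mesocarp 5 d, against 26.2, 45.9 and 32.6 CPM in mesocarp control, 10.8-fold higher. Glycolate oxidase (Solyc07g056540.3), an enzyme of photorespiration, was at 485, 1040 and 1369 CPM in mesocarp 5 d, against 54.6, 133 and 91.8 CPM in mesocarp control. Both rose without overlap (adjusted p = 1.72e-05 and 2.02e-05). The list's median was 1.46 on the log2 scale, or 1.28 with the gene at 0 reads in a group set at its bound.

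Genes for making chlorophyll rose in 12 of 22 cases and fell in none of the 22. The light-dependent protochlorophyllide reductase (Solyc07g054210.3) was at 227, 345 and 369 CPM in mesocarp 5 d, against 57.8, 74.2 and 61.3 CPM in mesocarp control (log2 change 2.28 ± 0.23 SE, adjusted p = 1.31e-06). Glutamyl-tRNA reductase (Solyc04g076870.4), the entry step, rose by 1.88, and a magnesium chelatase gene (Solyc04g015750.3) by 2.06 log2 units. GLK2, the regulator of chloroplast development known in tomato as uniform ripening, was at 59.2, 118 and 137 CPM in mesocarp 5 d, against 14.7, 21.3 and 13.2 CPM in mesocarp control, 6.38-fold higher (adjusted p = 0.000619). VDE and ZEP, which run the xanthophyll cycle that protects leaves from excess light, rose by 2.29 ± 0.29 and 1.70 ± 0.19 (SE) log2 units. They, CAB3A and GLK2 were the 4 of 8 chloroplast regulator and photoprotection genes that rose, and 0 fell.

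The carotenoid list had 8 of 17 members higher (47.1%, against 12.6% of all genes) and 1 lower (5.88%, against 7.71%). Its median log2 change was 1.07. PSY2, the phytoene synthase of green tissue, was at 64.6, 70.2 and 69.9 CPM in mesocarp 5 d, against 22, 31.1 and 23.7 CPM in mesocarp control (log2 change 1.41 ± 0.23 SE, adjusted p = 0.000207). CCD4B, a carotenoid-cleaving dioxygenase, was at 152, 266 and 324 CPM in mesocarp 5 d, against 13.1, 48.6 and 24.6 CPM in mesocarp control. GGPPS2, DXS1 and LCYB1 rose by 2.13, 1.33 and 1.12 log2 units. The single lower member was not called when mesocarp 5 d replicate 2 or 3 or control replicate 1, 2 or 3 was left out, and the higher count held at 8 or 9.

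**Figure D3:**
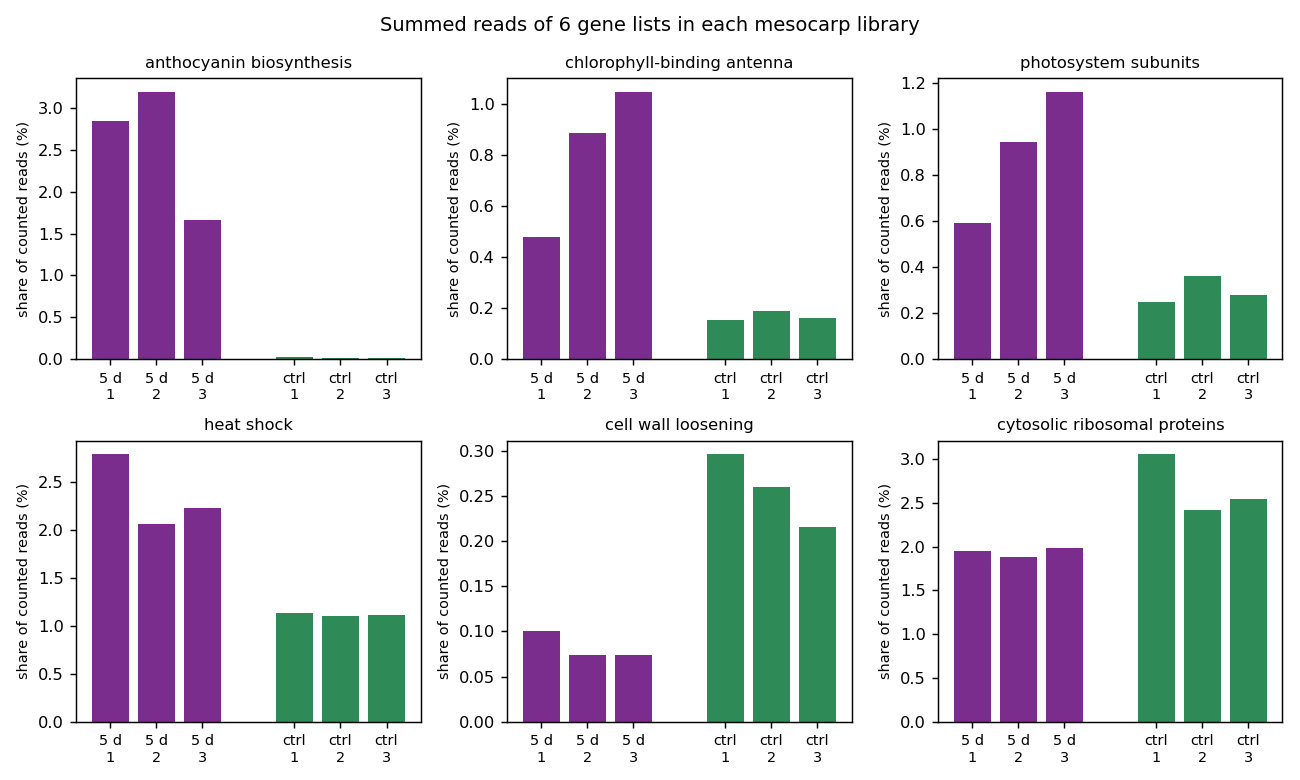
Share of all counted reads, in percent, taken by 6 gene lists in each mesocarp 5 d library (purple, left) and each mesocarp control library (green, right); each panel has its own axis from 0. Anthocyanin biosynthesis reaches 1.66% to 3.20% in mesocarp 5 d and at most 0.0218% in mesocarp control, while cell wall loosening genes are at 0.0741% to 0.101% in mesocarp 5 d and 0.215% to 0.296% in mesocarp control. The cell wall loosening list does not hold the abundant pectin methylesterase 1 (Solyc07g064170.3).

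Genes named for heat shock rose in 28 of 84 cases (33.3%, against 12.6% of all genes) and fell in 3 (3.57%, against 7.71%). Together they took 2.78%, 2.06% and 2.23% of reads in mesocarp 5 d, against 1.13%, 1.10% and 1.11% in mesocarp control. In mesocarp 2 d the share was between 4.50% and 5.78%. Small heat shock proteins, chaperones that hold unfolding proteins in solution, had the largest changes of the list. Solyc05g014280.4 was at 169, 109 and 78.4 CPM in mesocarp 5 d, against 0.516, 0.199 and 0.553 CPM in mesocarp control (log2 change 8.10 ± 1.63 SE, adjusted p = 0.0017). Solyc11g020330.1 was at 1093, 437 and 489 CPM in mesocarp 5 d, against 4.59, 4.87 and 4.51 CPM in mesocarp control (log2 change 7.17 ± 1.55 SE, adjusted p = 0.00301).

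The chloroplast small heat shock protein Solyc03g082420.3 was at 889, 542 and 785 CPM in mesocarp 5 d, against 6.28, 1.79 and 5.06 CPM in mesocarp control. Its interval shares 129 bases with a neighbour, and small heat shock genes are close copies of each other. The 5 heat shock genes with the largest changes spanned 6.22 to 8.10 log2 units. Over the whole list, the groups did not overlap for 57 of 84 genes, against 41.6% of all genes tested. The list's lower count of 3 dropped to 1 without control replicate 2, and the higher count stayed between 23 and 26 with any 1 library left out.

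Glutathione transferases, which detoxify and carry small molecules, rose in 17 of 47 cases (36.2%, against 12.6% of all genes) and fell in 2 (4.26%, against 7.71%). Besides the anthocyanin GST, Solyc12g011310.2 was at 1412, 921 and 635 CPM in mesocarp 5 d, against 1.64, 0.696 and 1.02 CPM in mesocarp control (log2 change 9.78 ± 2.03 SE, adjusted p = 0.00224). Every re-lit library was far above every control library. Solyc06g009020.2 was at 2684, 2154 and 1652 CPM in mesocarp 5 d, against 368, 278 and 266 CPM in mesocarp control (log2 change 2.83 ± 0.47 SE, adjusted p = 0.000303). Without control replicate 2 the higher count fell to 11, and scaled by total reads it was also 11.

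Genes that loosen the cell wall went mainly the other way, with 14 of 92 lower (15.2%, against 7.71% of all genes) and 4 higher (4.35%, against 12.6%). A pectate lyase (Solyc05g014000.5), which cuts pectin, was at 7.89, 11.8 and 15.3 CPM in mesocarp 5 d, against 594, 454 and 345 CPM in mesocarp control. It fell by 5.31 ± 0.94 (SE) on the log2 scale, 39.8-fold, without overlap (adjusted p = 0.000582). The pectinesterase Solyc06g009190.5 fell by 5.26 log2 units, a call lost without mesocarp 5 d replicate 1, 2 or 3 (adjusted p 0.0512, 0.0665 and 0.0522).

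Pectin methylesterase 1 (Solyc07g064170.3), which strips methyl groups from pectin, is not a member of the cell wall loosening list. This gene gave one of the most abundant transcripts of the control flesh. It was at 1402, 3234 and 4201 CPM in mesocarp 5 d, against 10584, 17077 and 11558 CPM in mesocarp control (log2 change -2.15 ± 0.39 SE, adjusted p = 0.000701). An inhibitor of such enzymes or of invertase (Solyc12g009270.1) fell too, to 1.75, 2.05 and 3.08 CPM in mesocarp 5 d, against 53.6, 50.3 and 32.4 CPM in mesocarp control (adjusted p = 5.84e-05). Against the list's direction, the xyloglucan endotransglucosylase Solyc07g009380.5 was at 296, 38.6 and 27.5 CPM in mesocarp 5 d and at 0.234, 0.248 and 0.298 CPM in mesocarp control (adjusted p = 0.000312). The list's lower count was 8 without mesocarp 5 d replicate 2 or replicate 3, and its higher count was 2 without control replicate 1.

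A peroxidase of the lignin and secondary wall list (Solyc02g079500.4) was at 19.3, 70.3 and 131 CPM in mesocarp 5 d, against 1992, 1525 and 1129 CPM in mesocarp control. It fell 21-fold without overlap (adjusted p = 0.00542). In the same list, a cinnamoyl-CoA reductase (Solyc02g086770.3) rose to 200, 206 and 113 CPM in mesocarp 5 d, against 1.69, 3.13 and 1.23 CPM in mesocarp control (adjusted p = 1.5e-05). The list as a whole had 11 of 116 higher (9.48%, against 12.6% over all genes) and 15 lower (12.9%, against 7.71%). Its higher count was 7 without mesocarp 5 d replicate 2, mesocarp 5 d replicate 3 or control replicate 2.

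**Figure D4:**
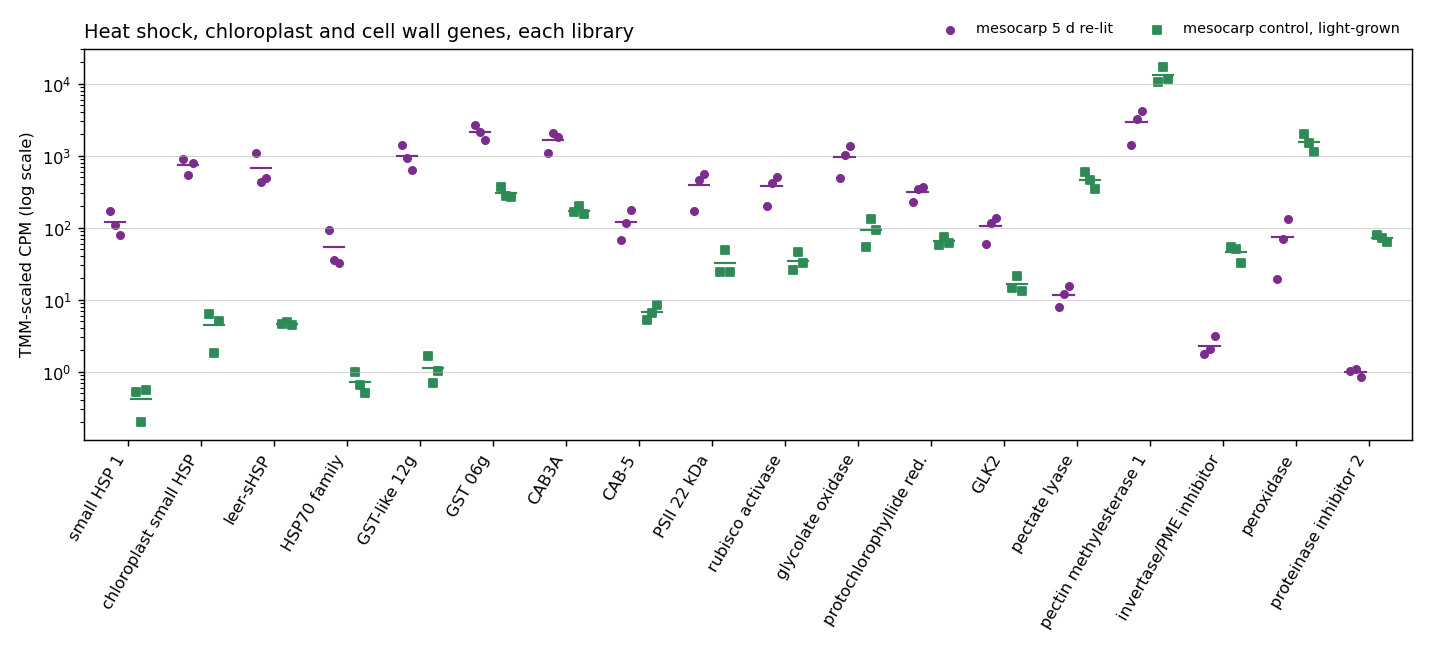
Level of 18 heat shock, glutathione transferase, chloroplast and cell wall genes in TMM-scaled CPM (log axis) in each mesocarp 5 d library (purple circles, left of each pair) and each mesocarp control library (green squares), with lines at the group means. Heat shock and chloroplast genes stand higher in mesocarp 5 d, and pectate lyase, at 7.89 to 15.3 CPM in mesocarp 5 d and 345 to 594 CPM in mesocarp control, is among those that stand lower.

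Of 18 vascular markers tested, 4 fell (22.2%, against 7.71% of all genes) and 1 rose (5.56%, against 12.6%). Sieve element occlusion b (Solyc05g013850.2), a phloem protein, was at 9.5, 6.62 and 11.1 CPM in mesocarp 5 d, against 51.0, 49.3 and 34.3 CPM in mesocarp control (log2 change -2.31 ± 0.47 SE, adjusted p = 0.0017). Xylem cysteine proteinase 1 (Solyc04g080873.2), whose interval shares 261 bases with a neighbour, rose to 102, 143 and 113 CPM in mesocarp 5 d, against 30.8, 28.1 and 35.3 CPM in mesocarp control. The summed share of these markers was 0.0258% to 0.0318% of reads in mesocarp 5 d and 0.0515% to 0.0626% in mesocarp control, and its part in the other results was not tested. Without mesocarp 5 d replicate 1 the lower count was 2.

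Of 195 cytosolic ribosomal protein genes, 37 fell (19%, against 7.71% of all genes) and 1 rose (0.513%, against 12.6%), with a median log2 change of -0.26. Their summed share was 1.95%, 1.88% and 1.99% of reads in mesocarp 5 d, against 3.05%, 2.42% and 2.55% in mesocarp control. Among the 37, the 60S protein L24 gene Solyc10g078660.2 had 61.0, 62.4 and 73.3 CPM in mesocarp 5 d and 117, 120 and 98.0 CPM in mesocarp control (log2 change -0.77 ± 0.16 SE, adjusted p = 0.00176). The count of lower genes depended on single libraries, being 17, 9 and 21 without mesocarp 5 d replicates 1, 2 and 3 and 12 and 15 without control replicates 1 and 2. Scaled by total reads, 86 fell.

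Ripening genes had 1 of 19 higher (5.26%, against 12.6% of all genes) and 3 lower (15.8%, against 7.71%). FUL2, a MADS-box ripening factor, fell to 157, 150 and 128 CPM in mesocarp 5 d, against 286, 383 and 300 CPM in mesocarp control (log2 change -1.15 ± 0.14 SE, adjusted p = 8.42e-06). The beta-galactosidase TBG4 rose by 2.57 log2 units, to 77.6, 49.0 and 39.3 CPM in mesocarp 5 d, against 6.42, 11.3 and 10.2 CPM in mesocarp control, a call lost without control replicate 1 (adjusted p = 0.0526). With 1 library left out, between 1 and 2 of the list's genes were lower. FUL2 kept its call in every alternative followed gene by gene, which leaves out the 2-fold test and limma.

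In sugar and starch metabolism, 2 of 11 genes rose (18.2%, against 12.6% of all genes) and 1 fell (9.09%, against 7.71%). With any 1 library left out, 1 rose and between 0 and 1 fell. The sucrose synthases went in opposite directions. SUS3 was at 260, 280 and 226 CPM in mesocarp 5 d, against 71.3, 88.4 and 88.7 CPM in mesocarp control (log2 change 1.62 ± 0.30 SE, adjusted p = 0.000705). SUS1 fell to 142, 112 and 213 CPM in mesocarp 5 d, against 810, 1475 and 720 CPM in mesocarp control (adjusted p = 0.0263), a call lost without mesocarp 5 d replicate 1, 2 or 3 or control replicate 2. Sugar transporter protein 11 (Solyc06g054270.3) rose to 26, 201 and 378 CPM in mesocarp 5 d, against 1.17, 2.63 and 1.23 CPM in mesocarp control (log2 change 6.91 ± 0.98 SE, adjusted p = 7.21e-05).

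Among hormone genes, a gibberellin 2-oxidase (Solyc01g058030.2), which inactivates gibberellin, was at 5.45, 6.28 and 4.19 CPM in mesocarp 5 d and had 0 reads in all 3 control libraries. Set against a floor of 3 reads per control library, it was at least 38.2-fold higher (adjusted p = 0.00025). A gibberellin-regulated protein gene (Solyc02g089350.3) fell to 2.24, 3.31 and 2.68 CPM in mesocarp 5 d, against 73.8, 160 and 93.1 CPM in mesocarp control, and a gibberellin receptor gene (Solyc06g008870.2) rose by 1.34 log2 units. The gibberellin list had 3 of 27 higher and 3 lower (11.1% each), against 12.6% higher and 7.71% lower over all genes. Auxin response genes had 7 of 111 higher (6.31%) and 14 lower (12.6%), ethylene genes 16 of 110 higher (14.5%) and 4 lower (3.64%), and lipoxygenase and jasmonate genes 1 of 29 higher and 1 lower (3.45% each). With 1 library left out, the higher and lower counts ranged from 3 to 6 and 5 to 11 for auxin, from 7 to 14 and 1 to 5 for ethylene and from 0 to 1 each for jasmonate, and the lower count for gibberellin from 2 to 3.

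Transcription factor families are set here against the 12.6% higher and 7.71% lower over all genes. In the B-box and CONSTANS family, which holds many light-regulated factors, 7 of 35 rose (20%) and 3 fell (8.57%). The B-box gene Solyc05g056080.4 was at 154, 252 and 235 CPM in mesocarp 5 d, against 20.8, 37.7 and 24.4 CPM in mesocarp control (log2 change 2.95 ± 0.35 SE, adjusted p = 9.84e-06). WRKY factors had 10 of 44 higher (22.7%) and 0 lower, NAC factors 6 of 49 higher (12.2%) and 3 lower (6.12%), and MYB factors 7 of 66 higher (10.6%) and 5 lower (7.58%). NAC domain TF Solyc05g007770.3 rose to 27.0, 47.2 and 39.2 CPM in mesocarp 5 d, against 0.703, 0 and 0.170 CPM in mesocarp control (adjusted p = 0.00624). With 1 library left out, the higher counts ranged from 5 to 7 for B-box, 4 to 10 for WRKY, 4 to 5 for NAC and 4 to 6 for MYB factors, and the lower counts from 1 to 3, 0 to 1, 0 to 2 and 3 to 5 in that order.

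The remaining lists are read against the same shares over all genes, 12.6% higher and 7.71% lower. Seed genes had 3 of 89 higher (3.37%) and 13 lower (14.6%), histones and cell division genes 8 of 154 higher (5.19%) and 9 lower (5.84%), and pathogenesis-related genes 3 of 78 higher (3.85%) and 6 lower (7.69%). Wound and proteinase inhibitor genes had 3 of 37 higher (8.11%) and 4 lower (10.8%), among them proteinase inhibitor type-2 (Solyc11g020960.2), which fell to 1.02, 1.08 and 0.848 CPM in mesocarp 5 d, against 78.1, 71.4 and 62.9 CPM in mesocarp control (log2 change -6.16 ± 0.78 SE, adjusted p = 2.43e-05). Cutin and wax genes had 3 of 72 higher and 3 lower (4.17% each), sugar transporters 5 of 50 higher and 5 lower (10% each), and nitrogen and amino acid storage genes 7 of 44 higher (15.9%) and 3 lower (6.82%). Glycoalkaloid genes had 0 of 6 higher and 1 lower, clock genes 0 of 9 higher and 1 lower, and aquaporins 0 of 5 in either direction by edgeR or DESeq2 (0 at an unadjusted p under 0.05). Over the fits with 1 library left out, the higher and lower counts ranged from 1 to 3 and 9 to 14 for seed genes, 3 to 7 and 8 to 10 for histones and cell division, and 2 to 3 and 1 to 4 for pathogenesis-related genes. They ranged from 1 to 3 and 1 to 4 for wound genes, 1 to 3 and 0 to 3 for cutin and wax, 2 to 4 and 2 to 5 for sugar transporters, and 2 to 5 and 0 to 2 for nitrogen genes, and the single lower glycoalkaloid and clock genes were each lost in some of these fits.

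Between the flesh groups compared, some genes were read only in mesocarp 5 d, and several are little known. A glycosyl hydrolase family gene (Solyc04g072870.2) was at 31.7, 34.8 and 23.2 CPM in mesocarp 5 d with 0 reads in mesocarp control, at least 215-fold higher (adjusted p = 1.2e-06). A CRIB domain gene (Solyc09g098425.1) was at 34.2, 30.4 and 14.9 CPM in mesocarp 5 d with 0 reads in mesocarp control, at least 190-fold higher. A cysteine protease gene named for senescence (Solyc02g062210.4) was at 27.7, 20.8 and 10.4 CPM in mesocarp 5 d with 0 reads in mesocarp control, at least 141-fold higher. In all 3 cases every mesocarp 5 d library held the transcript and no mesocarp control library did. A glycosyltransferase gene (Solyc12g098580.1), which lies beside 5GT on chromosome 12 and is read from the opposite strand, had 110, 107 and 73.4 CPM in mesocarp 5 d, against 0.141, 0 and 0.0425 CPM in mesocarp control.

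Among the most abundant called transcripts, a metallothionein (Solyc09g010800.5.1), a metal-binding protein, was at 11361, 13071 and 8210 CPM in mesocarp 5 d, against 2748, 2880 and 2990 CPM in mesocarp control (log2 change 1.92 ± 0.26 SE, adjusted p = 4.07e-05). A fructose-bisphosphate aldolase (Solyc02g084440.4) of central carbon metabolism was at 3671, 5307 and 5537 CPM in mesocarp 5 d, against 1752, 2914 and 2402 CPM in mesocarp control. A DnaJ co-chaperone gene (Solyc05g055160.3) fell modestly, to 2852, 2599 and 2598 CPM in mesocarp 5 d, against 3600, 4568 and 4105 CPM in mesocarp control. At the low end of the changes, the tetratricopeptide gene Solyc06g068130.3 and the DNA glycosylase gene Solyc10g005210.4 fell by 7.31 and 5.80 log2 units.

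The skin of the same fruit classes offers a comparison for the flesh. Epicarp 5 d against epicarp control gave 2930 called genes (14.9%), with 1652 higher (8.42%) and 1278 lower (6.51%), of which 1046 were higher in both tissues (42.3% of the genes higher in flesh and 63.3% of those higher in skin) and 583 were lower in both (38.5% and 45.6%). Opposite calls were made for 8 genes higher in flesh and lower in skin and 4 of the reverse kind. A test of the difference itself, the change in skin minus the change in flesh, passed for 191 genes (0.973% of those tested), 149 negative (0.759%) and 42 positive (0.214%). Of the 149 negative ones, 141 were genes that rose in flesh, and of the 42 positive ones 24 were genes that fell in flesh. With libraries scaled by total reads the split was 84 positive and 121 negative (41.0% positive, against 22%), and with limma on log2(TPM + 1) it was 240 positive and 162 negative (59.7% positive).

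The count of 191 was sensitive to single libraries. It fell to 108 without mesocarp 5 d replicate 2, to 115 and 104 without mesocarp control replicates 2 and 3, to 118 and 120 without epicarp 5 d replicates 1 and 2, and to 122, 118 and 115 without epicarp control replicates 1, 2 and 3. The epicarp 5 d libraries were also uneven in some skin markers, with CD1 between 2.41 and 938 CPM, the highest value being that of replicate 3. CYP77A2 was between 0.524 and 122 CPM in these libraries. The MIXTA-like gene varied less, between 32.1 and 81.2 CPM, and CD2 little, between 167 and 187 CPM. Without epicarp 5 d replicate 3, 131 genes passed. Same-numbered epicarp 5 d and mesocarp 5 d libraries deviated together from their group means (correlations 0.305, 0.194 and 0.271). With skin and flesh libraries of the same condition and number paired, a fit added after seeing the data, 692 genes differed between tissues (3.53%), 195 positive and 497 negative, and 188 of the 191 were among them.

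Among pigment genes, the test passed for 14 of the 15 anthocyanin biosynthesis genes, all negative, with a median of -8.74, and F3'H was the exception (adjusted p = 0.948). CHS1 was at 2038 ± 775 CPM in epicarp 5 d and 1319 ± 213 CPM in epicarp control (SD, n = 3 each), while DFR was at 3048 ± 1077 CPM in epicarp 5 d and 1470 ± 135 CPM in epicarp control. Light-grown skin thus already held these transcripts at a high level, where light-grown flesh held few, and the re-lit flesh values given above lie in the same range as those of re-lit skin. AN1 had the same form, with 440 ± 122 CPM in epicarp 5 d and 208 ± 14.2 CPM in epicarp control (difference of changes -8.59 ± 0.66 SE, adjusted p = 1.84e-07).

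For AN2-like the difference of changes did not pass (-1.78 ± 1.01 SE, adjusted p = 0.522), but did with the libraries paired by number (-1.81, adjusted p = 0.0103). It was at 1146 ± 254 CPM in epicarp 5 d and 794 ± 127 CPM in epicarp control. For GLK2 it passed neither way (-0.46 ± 0.64 SE, adjusted p = 0.868, and 0.698 when paired). GLK2 was at 72.0 ± 38.5 CPM in epicarp 5 d and 15.5 ± 3.15 CPM in epicarp control. Of 33 antenna genes, 3 differed between tissues by edgeR's test without pairing, against 0.973% of all genes, with 25 at an unadjusted p under 0.05 and a median difference of -2.15. The same test called 0 of 36 photosystem genes and 0 of 84 heat shock genes (15 photosystem and 3 heat shock genes at an unadjusted p under 0.05). Over all 19620 genes, 2369 had an unadjusted p under 0.05 in this test. With the libraries paired, 9 antenna (27.3%), 3 photosystem (8.33%) and 5 heat shock genes (5.95%) passed, all negative. The paired fit called 3.53% of all genes, with 497 of its 692 calls negative. CAB3A, one of the 3 antenna genes called without pairing, was at 938 ± 199 CPM in epicarp 5 d and 829 ± 69.6 CPM in epicarp control, so that its change was near zero in skin (difference -3.09 ± 0.53 SE, adjusted p = 0.00455).

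In the other direction, an R2R3-MYB gene annotated as MYB 58 (Solyc11g073120.2) was at 35.9, 35 and 42.2 CPM in mesocarp 5 d, against 19.3, 37.0 and 33.9 CPM in mesocarp control, with overlap. In skin it was at 11.4 ± 5.14 CPM in epicarp 5 d and 0.159 ± 0.152 CPM in epicarp control, and the difference of changes was 5.72 ± 1.03 (SE; adjusted p = 0.00724). BEL1-like homeodomain protein 4 (Solyc02g089940.4), of a family of developmental regulators, gave the same picture, at 5.35 ± 0.915 CPM in epicarp 5 d and 0.242 ± 0.158 CPM in epicarp control (difference 4.14 ± 0.64 SE, adjusted p = 0.00143). In flesh its groups overlapped, at 16.9, 28.5 and 21.5 CPM in mesocarp 5 d against 10.7, 27.4 and 14.7 CPM in mesocarp control.

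**Figure D5:**
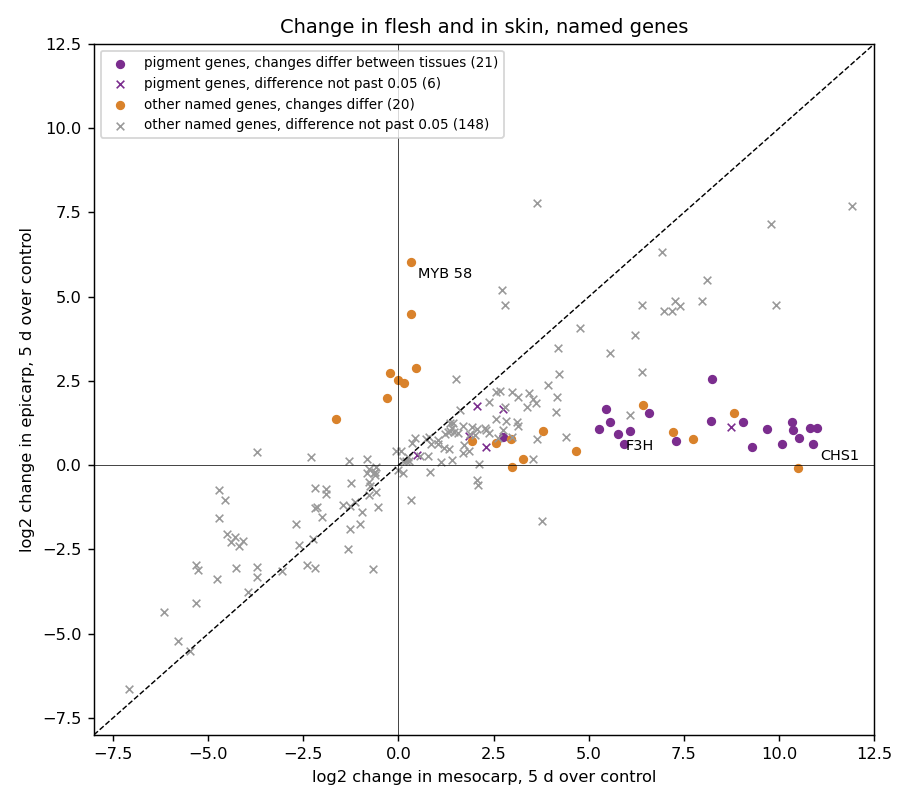
Log2 change of 5 d over control in mesocarp (x) and in epicarp (y) for 195 named genes with reads in all 4 groups; the dashed line marks equal change, filled points are genes whose changes differed between tissues at adjusted p 0.05. The 21 filled pigment genes (purple) lie right of the line, with CHS1 at 10.90 in mesocarp and 0.63 in epicarp, and MYB 58 lies at 0.33 in mesocarp and 6.04 in epicarp.

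Values of the earlier flesh samples place the re-lit levels in time, as a description. In mesocarp control, 0 d and 2 d, DFR averaged 2.05, 0.642 and 3478 CPM, with the 5 d libraries between 1802 and 3291 CPM. The small heat shock gene Solyc11g020330.1 averaged 2418 ± 180 CPM (SD, n = 3) in mesocarp 2 d, above each mesocarp 5 d library. The sugar transporter Solyc06g054270.3 averaged 51.1 ± 12.7 CPM (SD, n = 3) in mesocarp 2 d, within the range of the mesocarp 5 d libraries. Pectate lyase Solyc05g014000.5 spread between 84.3 and 486 CPM in mesocarp 0 d, and averaged 12.4 ± 2.71 CPM (SD, n = 3) in mesocarp 2 d.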

How the data were processed

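RNA-seq of 24 tomato fruit libraries (8 groups of 3) was analysed, from total RNA sequenced as paired 150-base reads per the labels' protocols. The authors deposited raw counts per gene and TPM values for genes of the SL4.0 build. Trimmomatic 0.39, featureCounts and DESeq2 are named in the submitters' processing notes, while no source used here names the aligner. Of the deposited count columns, 2 could not be tied to a single sample by name and were not used. Reads of the 2 libraries concerned, mesocarp 5 d replicate 3 among them, were recovered from the deposited TPM, of which 100% of values came out whole within 0.01 of a read. The same recovery equalled the deposited counts for every gene in the other 22 libraries.

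Libraries held 18402751 to 23197867 counted reads. Counts were fitted with edgeR 4.0.16 (TMM scaling, default expression filter, robust quasi-likelihood, 8 group means over all 24 libraries), which tested 19620 of 34688 genes. Calls used a Benjamini-Hochberg adjusted p of 0.05. The SE of an edgeR change is its absolute log2 value divided by the square root of the test's F statistic. It is not an error estimated by the fit, and is least certain where a group had few reads. F3'5'H, with no row in the count columns used, was tested with limma 3.58.1 on log2(TPM + 1). DESeq2 1.42.0, other scalings, filters, sample sets, a replicate block, pairing of skin and flesh libraries by number, and leaving out each library were alternatives, and code was tested on simulated data. R 4.3.3 and Python 3.11.15 were used.

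Gene lists numbered 38, of which 12 were by identifier and 26 by words in the annotation. Of 155 identifiers, 9 were not analysed here because no row matched. Named genes were the 14 highest and 14 lowest changes among called genes of at least 10 CPM, the 8 most abundant called genes, pathway genes, up to 5 per list and 8 tissue differences each way. Genes, lists and comparison were chosen with earlier results of these data known.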

Additional observations from a re-analysis of the deposited data

Results flagged for a closer look

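The results below were set apart because the change of 5 d over control, tested as a difference between tissues (epicarp change minus mesocarp change, log2), passed the threshold. A negative value means that the increase was larger in mesocarp. Among pathway enzymes and transport genes the difference was -4.21 for PAL_09g007920, -4.28 for PAL_09g007900, -5.03 for PAL_10g086180 and -1.89 for C4H_06g150137. It was -10.27 for CHS1, -8.74 for CHS2, -3.80 for CHI, -6.91 for CHIL, -4.84 for F3H, -9.30 for DFR and -7.76 for ANS. It was -5.30 for A3GT, -9.45 for 5GT, -6.56 for 3RT, -9.71 for AAT, -9.06 for AOMT, -9.72 for GST, -9.87 for MTP77 and -10.57 for Solyc12g098580.1. For F3'5'H it was -8.49 on the log2(TPM + 1) scale (limma).

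Among regulators the difference was -8.59 for AN1, -5.07 for WRKY44, -5.67 for MYB-ATV and -6.24 for MYB76. Further genes were Solyc04g072870.2 (-12.42), Solyc09g098425.1 (-10.73) and Solyc02g062210.4 (-10.89), for which the control flesh held no read, so these fitted values depend on the prior count and are no bound. CAB3A differed by -3.09, Solyc02g071010.1 by -4.26, Solyc07g009380.5 by -7.26, Solyc04g080873.2 by -1.20, Solyc02g086770.3 by -4.64, the B-box gene Solyc05g056080.4 by -2.18 and WRKY factor Solyc02g093050.3 by -3.05.

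Positive differences, where the change in epicarp was the more positive one, were 5.72 for Solyc11g073120.2, 4.14 for Solyc02g089940.4, 3.00 for Solyc01g090460.3, 2.96 for Solyc01g110000.3 and 2.41 for Solyc11g013310.2. Leaving out 1 library ended the call in 11 of 12 fits for CHI (adjusted p 0.0588 to 0.116) and Solyc02g071010.1 (0.0623 to 0.137), and in 10 of 12 for WRKY44, Solyc07g009380.5 and Solyc02g093050.3. The replicate block ended it for Solyc02g071010.1 (-4.18, adjusted p = 0.0682) and Solyc07g009380.5 (-7.42, adjusted p = 0.06), and pairing skin and flesh libraries of the same condition and number ended it for Solyc02g071010.1 (-3.83, adjusted p = 0.0621). Leaving out 1 library ended it in 9 fits for Solyc05g056080.4, 6 for Solyc01g090460.3, 5 for CHS2, 3 for Solyc02g086770.3 and 1 for Solyc01g110000.3. A test for a difference of at least 2-fold ended it for C4H_06g150137, Solyc04g080873.2 and Solyc11g013310.2, which kept it in every other fit of the counts. That test also ended it for CHI, WRKY44, Solyc01g090460.3, Solyc01g110000.3, Solyc02g071010.1, Solyc02g086770.3, Solyc02g093050.3, Solyc05g056080.4 and Solyc07g009380.5. Dropping the low-count filter ended it for CHI, Solyc02g071010.1, Solyc02g093050.3 and Solyc07g009380.5. Scaling by total reads ended it for Solyc02g071010.1.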

How the results depend on the processing

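Of 197 named genes past the threshold, 125 kept the call in every alternative followed gene by gene, 72 lost it in at least 1 and 0 changed direction. The flesh calls of these genes were not followed in the test for a change of at least 2-fold or in the limma fits. The genes called between mesocarp 5 d and mesocarp control (3987) became 6251 when the 0 d groups were left out, 496 when a change of at least 2-fold was tested, 6027 with limma on log2(TPM + 1) and 5984 with the same and no filter. With 1 library left out they ranged from 2558 to 3353. The tissue differences (191) became 463 with only the groups compared, 807 without the 0 d groups, 74 with the 2-fold test, 402, 308 and 463 with limma (added value 1, added value 0.1, and 1 with no filter) and 549 with DESeq2. With 1 library left out they ranged from 104 to 180. List members called (432) became 657 without the 0 d groups, and scaled by total reads, a setting chosen after seeing the data, 236 were higher and 283 lower. The cause of these shifts was not tested. The median SD of log2(CPM + 1) over genes was 0.31 in mesocarp 0 d and 0.295 in epicarp 0 d, against 0.191 in mesocarp 5 d and 0.214 in mesocarp control. In the other groups it was between 0.135 and 0.194. DET1, not past the threshold, changed sign: 0.07 as reported, -0.14 scaled by total reads, and -0.035 to 0.194 with 1 library left out. F3'5'H stayed between 8.886 and 9.491 with 1 library left out. Same-numbered mesocarp 5 d and mesocarp control libraries did not deviate together (correlations -0.022, -0.029 and -0.121), so the flesh comparison was not paired. Those of epicarp 5 d and mesocarp 5 d did (0.305, 0.194 and 0.271), while those of epicarp control and mesocarp control gave 0.212, 0.0517 and 0.0454. The labels do not say what a number marks. A replicate block across all groups gave 4051 calls between the flesh groups and 176 tissue differences (43 positive, 133 negative), and pairing by number within each condition, added after seeing the data, gave 692. Counting depth limits genes under about 0.171 CPM, and n = 3 limits the rest.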
